A study of Drosophila melanogaster with 3 samples.

Results

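The glutathione transferases (GSTs) and the UDP-glycosyltransferases (UGTs) of Drosophila melanogaster were examined for binding of SREBP at their transcription start sites (TSSs). Members were the protein-coding genes of the Ensembl annotation of dm6 whose symbol is Gst followed by the class letter D, E, O, S, T or Z and a number, or Ugt followed by a number. This rule took 70 of 13945 protein-coding genes, of which 35 were GSTs and 35 were UGTs. Sites of SREBP had been located by ChIP-seq, the sequencing of DNA that is precipitated with a protein, in whole wandering L3 larvae, male and female together, from a transgenic line that carries SREBP with GFP at its N terminus. The precipitation used an antibody to GFP, although the antibody field of the labels names HLH106, an older name of SREBP. The 3 biological replicates form 1 group of the same genotype and stage, so no comparison between groups was possible, and control libraries were not analysed here. The labels do not name the promoter of the transgene or the number of larvae in a sample, and do not say that the larvae lack their own SREBP.

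GSTs join glutathione to reactive compounds, and UGTs join a sugar from a UDP-sugar donor to lipophilic ones. Both reactions make the product more soluble, and in insects both families act in the clearance of insecticides, plant toxins and products of oxidation, mostly in fat body, gut and Malpighian tubules. The Delta and Epsilon classes of GSTs are particular to arthropods and lie in dense gene clusters, whereas Omega, Sigma, Theta and Zeta are shared with vertebrates. SREBP is a membrane-bound transcription factor that is cleaved when lipid is scarce, and in flies it is known for genes of fatty acid and phospholipid synthesis. Because chromatin came from whole larvae, binding in a few cells and weak binding in many cannot be told apart.

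Genes count as bound where the optimal set has a peak whose summit is at most 500 bp from one of their TSSs. The optimal set is the list of 7993 peaks that the authors kept for reproducibility between replicates, and its peaks are the strongest 7993 of the 30000 peaks called on the pooled replicates. Peaks were ranked within each list by the authors' signal value, with rank 1 the strongest. Ranks, not signals, were compared between lists, since no source used here gives the scale of the signal.

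Bound members were few: 10 of the 70 genes had an optimal peak, or 14.3% (95% Wilson interval 7.95 to 24.3). Among all protein-coding genes, 28.7% had one (4009 of 13945). The GSTs accounted for 8 of the 10, which is 22.9% of that family (12.1 to 39.0), an interval that contains the share of all genes. Only Ugt302K1 and Ugt316A1 were bound among the UGTs, or 5.71% (1.58 to 18.6), an interval that lies below it. The difference between the families was not tested. These intervals cover counting error only and treat genes as independent, although GstE1 and GstE10 shared 1 peak.

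The chromatin under 4 of these peaks is given here as sequence. They are the bound GSTs and UGTs whose summit lay upstream of the gene on arms 3L and 3R, and no base of the windows is annotated as exon. Each window runs from 50 bp before the summit to 50 bp after it, read 5′ to 3′ on the strand of the gene, which is the minus strand for all 4. Capitals mark matches on either strand to GATAA, the core bound by GATA factors, or to CANNTG, the general E-box of helix-loop-helix proteins.
GstD1, chr3R:12369601-12369701: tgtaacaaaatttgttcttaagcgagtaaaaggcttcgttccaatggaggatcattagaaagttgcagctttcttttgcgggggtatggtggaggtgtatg
GstO1, chr3L:8525106-8525206: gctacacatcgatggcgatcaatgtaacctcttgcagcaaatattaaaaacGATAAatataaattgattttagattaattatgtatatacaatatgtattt
Ugt302K1, chr3R:11154018-11154118: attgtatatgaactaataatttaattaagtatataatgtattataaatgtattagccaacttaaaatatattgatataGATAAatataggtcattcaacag
Ugt316A1, chr3L:19062876-19062976: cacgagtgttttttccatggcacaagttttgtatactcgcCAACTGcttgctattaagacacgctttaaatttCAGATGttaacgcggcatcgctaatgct
The GstD1 window held neither motif. In the GstO1 window GATAA began 1 bp after the summit, and in the Ugt302K1 window 28 bp after it. The Ugt316A1 window held 2 E-boxes, CAACTG starting at -10 bp and CAGATG at 23 bp from the summit. No window held the palindromic E-box CACGTG or the sterol regulatory element core TCACNCCAC. Base composition also differed, with a G+C content of 17.8% for Ugt302K1 and 25.7% for GstO1 against 41.6% for both GstD1 and Ugt316A1. The median over all 3318 optimal peaks at TSSs was 31.7%.

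**Figure D1:**
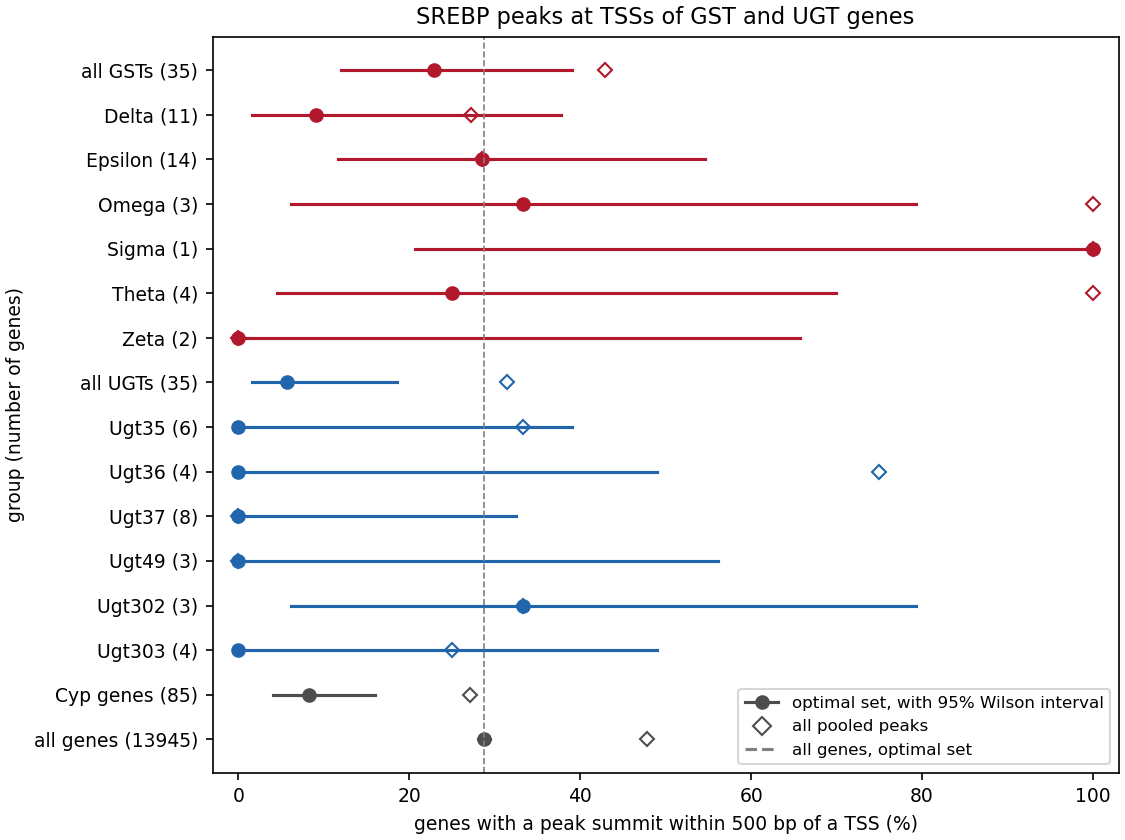
Share of genes (x axis, %) with a peak summit within 500 bp of a TSS, by family, class and comparison group (y axis, with the number of genes). Filled circles with lines give the optimal set with 95% Wilson intervals and open diamonds all pooled peaks, and UGT families of 1 gene are not drawn. The dashed line at 28.7% is the share of all genes in the optimal set, and the UGTs as a whole stand at 5.71%, to its left.

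Counts by class are small. Among GSTs, an optimal peak was found at 4 of 14 Epsilon genes, 1 of 11 Delta genes, 1 of 4 Theta genes, 1 of 3 Omega genes and the single Sigma gene. Neither Zeta gene was bound. The Zeta enzymes, maleylacetoacetate isomerases, act in tyrosine breakdown rather than in detoxification. Among UGTs, 1 of the 3 Ugt302 genes and the single Ugt316 gene were bound, and none of the 31 genes of other families was. The largest family without an optimal peak was Ugt37, with 0 of 8 genes, which allows a share of up to 32.4% by the Wilson interval. The plot of shares by class shows that the intervals of every class of 3 or more genes overlap.

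Epsilon GSTs held the strongest peak of any member. GstE13 (FBgn0033381) ranked 492, 459 and 326 in replicates 1 to 3 (mean 426 ± 87.9, SD, n = 3) and 412 in the optimal set. Its summit lay in the gene's own untranslated region, 96 bp downstream of a TSS, in the peak chr2R:9121991-9122380 with an authors' signal of 2428. No other member was among the 1000 strongest optimal peaks, where 5.21% of all genes (726) had one. GstE13 lies outside the main Epsilon cluster on 2R.

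GstE11 (FBgn0034354), also apart from that cluster, had ranks of 4450, 5435 and 5568 in replicates 1 to 3 (mean 5151 ± 611, SD, n = 3). Its summit stood 338 bp inside the gene, in an intron. The remaining bound Epsilon genes, GstE1 (FBgn0034335) and GstE10 (FBgn0063499), are divergent neighbours whose gene bodies overlap, and 1 peak at rank 7737 stood 36 bp inside GstE1 and 90 bp inside GstE10. That peak ranked 7175 in replicate 2 and 8381 in replicate 3, and replicate 1 had no summit within 150 bp of it. GstE14, known as Noppera-bo and required for ecdysteroid synthesis in the prothoracic gland, was not bound, and the optimal summit nearest to it was 9376 bp away.

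GstD1 (FBgn0001149), the Delta enzyme known for its action on the insecticide DDT and as a reporter gene of oxidative stress, was the best ranked member after GstE13 and Ugt302K1. Its peak, chr3R:12369552-12369808, ranked 2686, 3238 and 2745 in replicates 1 to 3 (mean 2890 ± 303, SD, n = 3), and the 3 ranks were close together. The summit was at -383 bp, in intergenic sequence that separates GstD1 from GstD2. Of all bound members, GstD1 lay farthest from its TSS.

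GstO1 (FBgn0035907), an Omega GST, had ranks of 4262, 4507 and 3796 (mean 4188 ± 361, SD, n = 3) for a summit at -290 bp. That summit is closer to the TSS of foi, which encodes a zinc transporter of the ZIP family, so the peak counts for both genes. When a peak was credited to 1 gene, the one with the closest TSS, GstO1 and GstE10 were no longer counted and 8 members remained. Under that rule 21.2% of all genes were bound.

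GstT1 (FBgn0050000), of the Theta class, had ranks of 10958, 5064 and 5726 (mean 7249 ± 3229, SD, n = 3), so replicate 1 placed it outside its 7993 strongest peaks. Its peak was shared with the non-coding gene lncRNA:CR44285, but the nearest TSS was that of GstT1. GstS1 (FBgn0010226), the Sigma GST that is abundant in flight muscle and conjugates products of lipid peroxidation, varied most. It had ranks of 18177, 4412 and 20500 (mean 14363 ± 8696, SD, n = 3), beside rank 7825 in the optimal set, and its mean rank without replicate 2 was 19338.5.

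Among UGTs, Ugt302K1 (FBgn0040251, formerly Ugt86Di) had the strongest peak, chr3R:11153943-11154239, at rank 2122 with a summit at -219 bp. The replicates ranked it 3389, 1594 and 1826 (mean 2270 ± 976, SD, n = 3), with replicate 1 lower than both others. The same summit was 558 bp from the divergent gene Ugt302E1, just beyond the 500 bp limit. Ugt316A1 (FBgn0036842) had a peak at -110 bp, chr3L:19062863-19062999, at ranks 4852, 3850 and 4150 (mean 4284 ± 514, SD, n = 3). It was shared with Sfxn2, a gene of the mitochondrial sideroflexin family, but the nearest TSS was that of Ugt316A1.

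**Figure D2:**
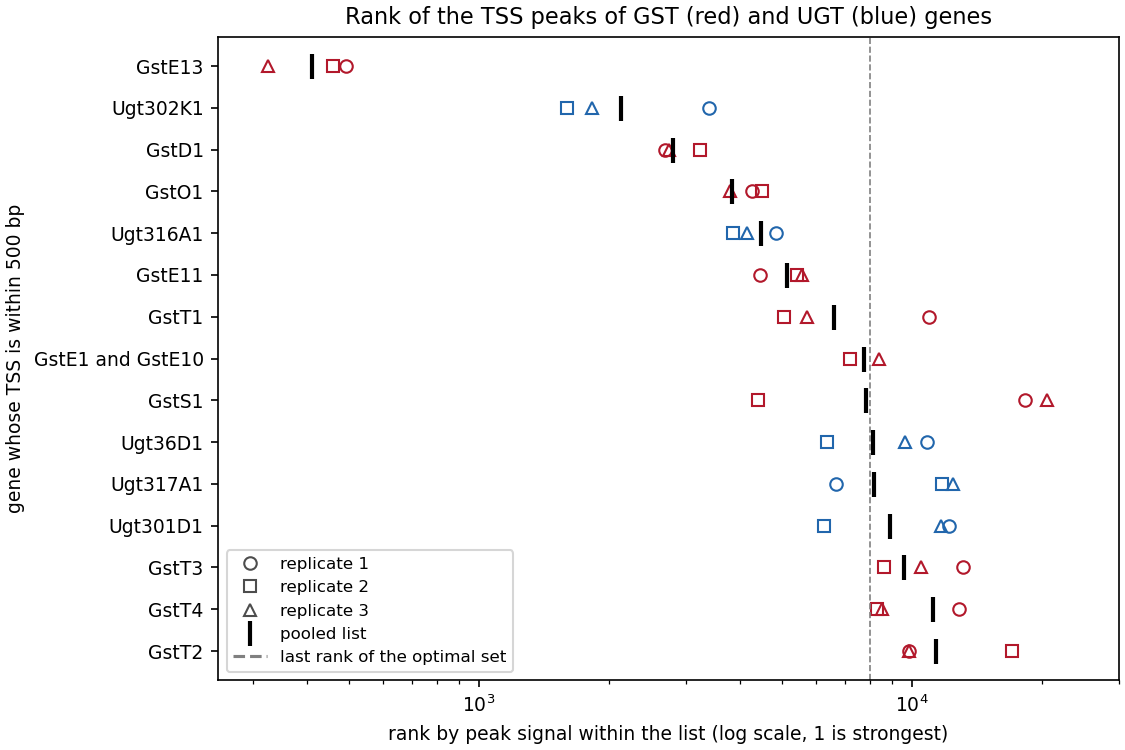
Rank by signal (x axis, log scale) of the TSS peaks of GST genes (red) and UGT genes (blue) in replicates 1 to 3 (open symbols) and in the pooled list (bars), for members of pooled rank up to 11367. The dashed line marks rank 7993, the end of the optimal set, and the symbols of GstS1 run from 4412 to 20500 while those of GstE13 stay between 326 and 492.

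Of the 10 bound members, 6 had their peak among the 7993 strongest of all 3 replicates. These were GstE13, GstD1, GstO1, GstE11, Ugt302K1 and Ugt316A1. GstT1 was there in 2 replicates, and GstE1, GstE10 and GstS1 in 1, which was replicate 2. In the full replicate lists of 30000 peaks, 8 members had the peak in all 3, the exceptions being GstE1 and GstE10. Of all genes, 26.2% met that condition. Requiring all 3 replicates among the strongest therefore left 4 GSTs and 2 UGTs, where 22.0% of all genes remained.

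Members that lie just inside and just outside the distance limit were also listed. Inside it, the farthest summits were those of GstD1 at 383 bp and GstE11 at 338 bp. Beyond it, Ugt302E1 was followed by GstO3 at 637 bp, where a peak of rank 6200 lay in the coding sequence of that gene. GstZ2 had a peak of rank 2123 in its intron, 715 bp from its TSS. GstE2 followed at 1057 bp and GstT2 at 1342 bp.

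Weaker peaks covered more of the members. In the pooled list of 30000 peaks, 26 of 70 members had a TSS peak (37.1%, 26.8 to 48.9), against 47.8% of all genes. The GSTs reached 15 of 35 (42.9%, 28.0 to 59.1) and the UGTs 11 of 35 (31.4%, 18.6 to 48.0), and both intervals overlap widely. The intervals of all members, of GSTs and of UGTs each contain the 47.8% of all genes, for UGTs near the upper end. All 3 Omega and all 4 Theta GSTs had one, but no Epsilon gene beyond the 4 already bound. Of the 4 Ugt36 genes 3 had one, and none of the Ugt37 and Ugt49 genes did.

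Among the 16 members with a pooled peak outside the optimal set, 6 had it in all 3 replicates at a mid rank. Ugt36D1 had pooled rank 8132 and ranks of 10818, 6370 and 9645 in replicates 1 to 3. Ugt317A1 had pooled rank 8157 and ranks of 6666, 11707 and 12424, and Ugt301D1 had pooled rank 8906 and ranks of 12178, 6261 and 11681. Each of these UGTs was thus among the 7993 strongest of 1 replicate only. The Theta genes GstT3, GstT4 and GstT2 had pooled ranks of 9594, 11163 and 11367, and none was among the 7993 strongest of any replicate. The other 10 members ranked from 18787 to 26132 in the pooled list. They include Ugt36A1, known as Dorothy, at rank 21031, and Ugt35C1, formerly Ugt86Dd and known from work on nicotine resistance, at rank 26132. For Ugt36A1, and for the 1 peak shared by Ugt304A1 and Ugt303A1, no replicate had a summit within 150 bp.

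Replicates held different weak peaks for the UGTs. In the full lists, a TSS peak was found for 13, 6 and 12 of the 35 UGTs in replicates 1 to 3, and for 13, 19 and 16 of the 35 GSTs. The lowest UGT count and the highest GST count thus fell in the same library, replicate 2. Over all genes the shares were 47.3%, 50.8% and 50.4%. Ugt305A1 had a TSS peak at rank 6572 in replicate 1 and 6995 in replicate 3, and none in replicate 2 or in the pooled list. GstE12 had one at rank 3017 in replicate 2 only. Depth of the libraries is unknown, and its part in these counts was not tested.

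The clustered members were compared by gene cluster, taken as 3 or more members of a family on 1 arm with gaps of at most 20 kb. There were 7 such clusters with 42 of the 70 members. An optimal TSS peak was found for 5 of 42 members inside clusters (11.9%, 5.19 to 25) and 5 of 28 outside (17.9%, 7.88 to 35.6). The share of all genes, 28.7%, lies above the first interval and within the second, but these intervals overlap. The share of all genes with 1 TSS, 22.7%, lies within both. GstE1 and GstE10, both counted inside clusters, share 1 peak. For GSTs the counts were 4 of 24 inside and 4 of 11 outside, and for UGTs 1 of 18 inside and 1 of 17 outside. Intervals overlap in each of these pairs. Summits within a cluster were counted with 500 bp on either side.

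The Delta cluster (chr3R:12364776-12385624) holds all 11 Delta genes in 20.8 kb and 1 optimal summit, that of GstD1. A further 6 pooled summits lay in it, all at ranks from 17416 to 25172. GstD3 and GstD4, in the row of same-strand genes GstD2 to GstD8, had such weak peaks 104 and 119 bp inside the gene. The main Epsilon cluster (chr2R:18396638-18409835), with 10 genes in 13.2 kb, had the single peak shared by GstE1 and GstE10 at one end and no other pooled peak over its whole length. The UGT cluster of 9 Ugt302, Ugt303, Ugt304 and Ugt35 genes (chr3R:11151026-11177910, 26.9 kb) had the Ugt302K1 peak and 4 weaker pooled summits. In these 3 clusters the optimal summit lay between the start sites of divergent genes or, for GstE1 and GstE10, where they overlap.

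Omega genes formed the shortest GST cluster, 5.98 kb with GstO1 to GstO3 and se. The se gene encodes the Omega enzyme of red eye pigment synthesis, which the symbol rule does not take. The cluster held 2 optimal summits, of which that of GstO1 lay just outside its gene bodies, and 4 further pooled ones. Of the smaller UGT clusters, that of Ugt36 genes had 5 pooled summits outside the optimal set, and those of Ugt37 and Ugt303B genes had no pooled summit.

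**Figure D3:**
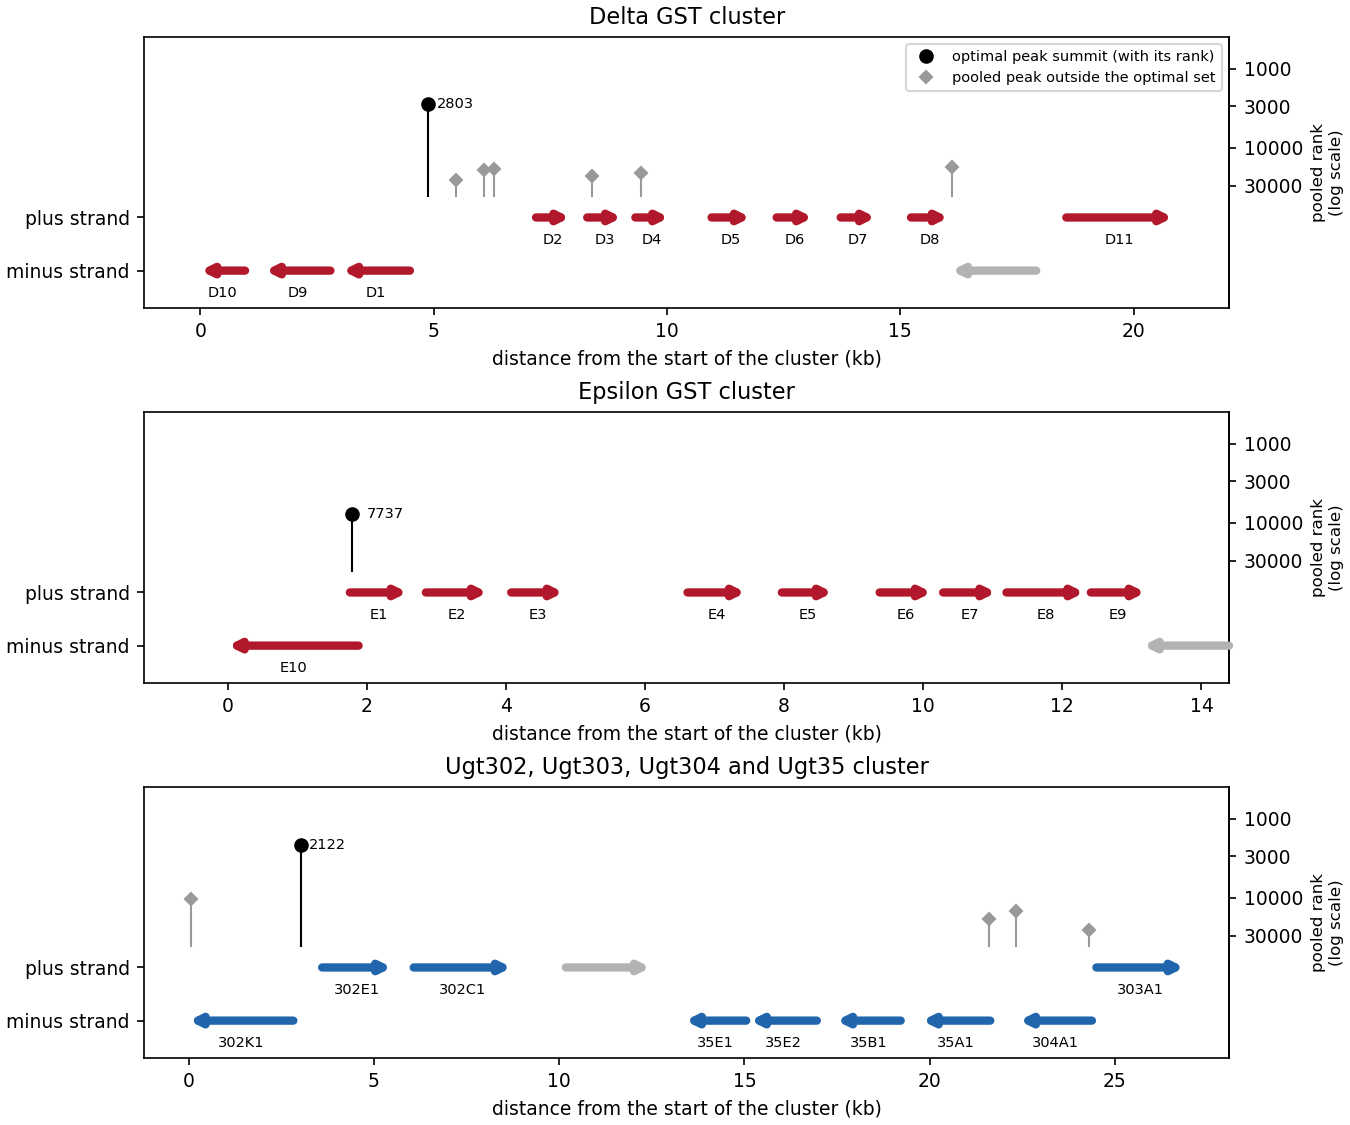
Maps of the Delta, main Epsilon and Ugt302 to Ugt35 clusters, with distance from the cluster's start in kb on the x axis and genes as arrows on the plus or minus strand (members coloured, other genes grey). Stems give peak summits at their pooled rank (right axis, log scale), with black circles for optimal peaks and grey diamonds for other pooled peaks. Each of these clusters has 1 black circle, at rank 2803, 7737 and 2122 from top to bottom.

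The position of the summits relative to the TSS was measured as well. Among all 4009 bound genes, 87.6% had their strongest summit upstream of the TSS and the median was at -133 bp. Among the 10 bound members 5 were upstream and the median was at -1 bp. No summit lay near that median, which falls between GstT1 at -38 bp and GstE1 at 36 bp. GstE1 and GstE10 have the same peak. Downstream summits were those of GstE1, GstE10, GstE11, GstE13 and GstS1, so all 4 bound Epsilon genes had the summit inside the gene. GstE13 has 2 TSSs and its summit lies between them, so its side is not stable. The summit was 69 bp downstream of the nearest TSS in replicate 2 but at -98 bp in replicate 1 and -91 bp in replicate 3, which would make 6 of 10 members upstream. Both UGT summits were upstream.

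**Figure D4:**
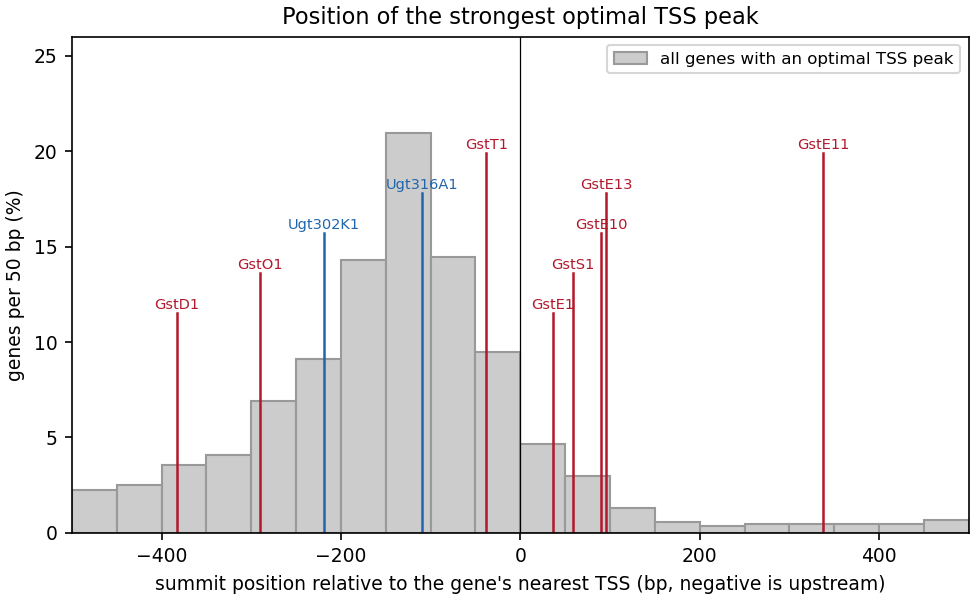
Position of the strongest optimal summit relative to the nearest TSS of the gene (x axis, bp, negative upstream) for all bound genes (grey bars, % of genes per 50 bp) and for the 10 bound members (coloured lines; their height carries no value). The bars peak upstream of the TSS, and 5 of the 10 lines stand to the right of 0.

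The distance from each gene to the nearest optimal summit, which needs no limit of 500 bp, was longer for UGTs than for GSTs, a difference that was not tested. The median was 3345 bp for GSTs and 13913 bp for UGTs, with 3968 bp for all genes. No GST was over 20 kb from an optimal summit, the farthest being GstE12 at 18720 bp. For UGTs, 11 of 35 (31.4%) were over 20 kb away, against 15.4% of all genes. The farthest was Ugt50B3 at 155609 bp, a distance exceeded by 94 of all genes (0.674%). Members of a cluster share the same nearest summits, so these distances are not independent.

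**Figure D5:**
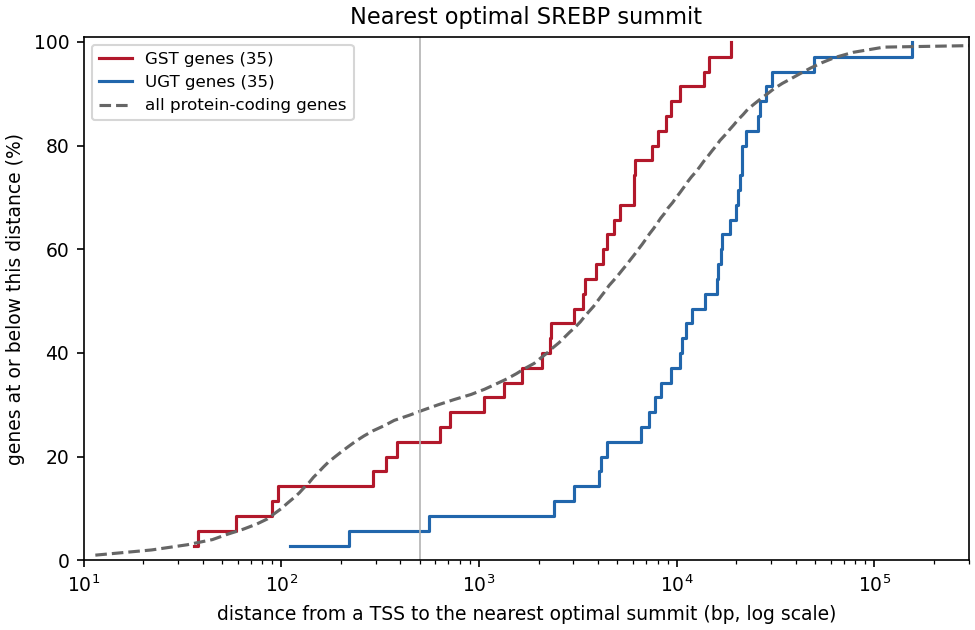
Cumulative share of genes (y axis, %) by distance from a TSS to the nearest optimal summit (x axis, bp, log scale) for the 35 GSTs (red), the 35 UGTs (blue) and all protein-coding genes (dashed), with a vertical line at 500 bp. Up to 20 kb the blue curve lies below the dashed one, with a median of 13913 bp against 3968 bp.

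Several properties of the genes stand beside these counts, and their part in them was not tested. Of the 10246 genes with 1 TSS, 22.7% were bound, and 59 of the 70 members have 1 TSS. Of those, 7 were bound (11.9%, 5.87 to 22.5), of which 5 were among 28 GSTs and 2 among 31 UGTs. Members with more TSSs were bound in 3 of 11 cases, against 45.6% of all such genes. Few members had a protein-coding neighbour whose TSS lay within 500 bp of theirs, 8 of 70 (11.4%) against 30.9% of all genes. With such a neighbour 4 of 8 members were bound, against 51% of all genes, and without one 6 of 62 (9.68%), against 18.8%. Of the 10 bound members 4 shared the peak with another protein-coding gene (40%), against 56.0% of all bound genes. Repeated sequence was rare at these TSSs. Within 500 bp of a TSS the lowest share of 31-mers that occur once in the genome was 96.3%, at GstD2, and no member was under 90%, against 4.53% of all genes.

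Another detoxification family gave a yardstick. Cytochrome P450 genes, with symbols of Cyp and a number, were bound in 7 of 85 cases (8.24%, 4.05 to 16.0), against 28.7% of all genes, and 23 had a pooled TSS peak (27.1%), against 47.8%. Their median distance to the nearest optimal summit was 11288 bp. The P450 interval overlaps those of the GSTs and the UGTs.

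The 9 distinct peaks of the bound members were searched for motifs. So few windows cannot show a lack of motifs that are rare among all TSS peaks. Matches were counted on both strands within 50 bp of the summit, beside the 3318 distinct optimal peaks at any TSS. None held the sterol regulatory element core TCACNCCAC (0.151% of all TSS peaks), the palindromic E-box CACGTG (0.964%), the antioxidant response element TGACNNNGC (2.62%), AP-1 (TGANTCA, 2.26%), the HNF4 site CAAAGTCCA (0%), DRE (TATCGATA, 3.19%) or M1BP (GGTCACACT, 1.42%). The general E-box CANNTG, which contains CACGTG, was in 2 of the 9, those of Ugt316A1 and GstS1, and in 31.2% of all. GATAA was in 2 of 9, those of Ugt302K1 and GstO1, and in 24.1% of all. The GAGA motif GAGAGAG was in 1 of 9, that of GstS1, and in 1.27% of all. A match describes the letters in these windows and does not show which factor bound there.

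The genes that surround these enzymes in the pathway were described by 5 lists with 43 genes. Of these, 19 were bound (44.2%, 30.4 to 58.9), beside the 28.7% of all genes. The lists were chosen with earlier results of these data known, so their share is a description and shows no enrichment. They were not matched for number of TSSs, and 45.6% of all genes with 2 or more TSSs were bound. Among the regulators of detoxification 6 of 10 were bound (60%, 31.3 to 83.2). Hr96, a nuclear receptor of the xenobiotic response and of lipid balance, had ranks of 581, 737 and 562 in replicates 1 to 3 (mean 627 ± 96.0, SD, n = 3), at a peak shared with EMC6. The gene cnc, the fly homologue of Nrf2 that drives GstD1 under oxidative stress, had ranks of 1098, 731 and 1068 (mean 966 ± 204, SD, n = 3). Its inhibitor Keap1 was bound at rank 4125, at a peak shared with kuk, and its partner maf-S at rank 6131, at one shared with rig. The other bound regulators were foxo at rank 1800 and gce at rank 7546. Unbound were ss, tgo, Met and Nf-YB. Hr96 and cnc ranked above every member except GstE13 in each replicate.

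Supply of glutathione was represented by 9 genes, of which 3 were bound (33.3%, 12.1 to 64.6), an interval that contains the 28.7% of all genes. The regulatory subunit Gclm of glutamate-cysteine ligase was bound at rank 2867, at a peak shared with CG17625, while the catalytic subunit Gclc had a pooled peak at rank 11829 and neither glutathione synthetase gene, Gss1 or Gss2, had one. Trxr1, the thioredoxin reductase that also recycles glutathione in flies, was bound at rank 3416, at a peak shared with sni, and Cbs, of cysteine synthesis, at rank 3851. In the list set up as other glutathione-dependent enzymes, 4 of 6 genes were bound (66.7%, 30.0 to 90.3), beside the 28.7% of all genes. Like the other lists, it was chosen with earlier results known, so its share shows no enrichment. That each gene of this list uses glutathione was not checked, for Gtpx and fax in particular. Mgstl, the microsomal GST, had ranks of 544, 654 and 668 (mean 622 ± 67.9, SD, n = 3), gfzf ranked 1776, the peroxidase Gtpx 3263 and fax 4265. The peak of gfzf was shared with Sas-4 and that of Gtpx with Strip.

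In the list of UDP-sugar supply and transport, 2 of 6 genes were bound (33.3%, 9.68 to 70.0), again an interval around the share of all genes. Ugalt, a transporter of UDP-galactose, held rank 1 in all 3 replicates, and Pgm1, a phosphoglucomutase, had rank 927. UGP and sgl, which make UDP-glucose and UDP-glucuronic acid, were not bound, although sgl had a pooled peak at rank 8117. In the list of other conjugation and export 4 of 12 genes were bound (33.3%, 13.8 to 60.9), which also takes in that share. MRP, an ABC transporter of glutathione and glucuronide conjugates, had ranks of 121, 635 and 169 (mean 308 ± 284, SD, n = 3), at a peak shared with Pih1D1. The juvenile hormone epoxide hydrolase genes Jheh3 and Jheh1 ranked 2656, at a peak shared with CG43069, and 2973, and the ABC transporter gene Mdr49 ranked 7765, while none of the 4 sulfotransferase genes St1 to St4 was bound. These lists are short, and the difference between them and the members was not tested.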

How the data were processed

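The data were ChIP-seq peak lists from transgenic whole larvae in 3 biological replicates. The authors aligned reads to dm6 and derived 1 list for each replicate, 1 pooled list and the optimal set chosen by the irreproducible discovery rate, per the deposited notes. For the aligner, peak caller and thresholds, no source used here gives a name or value. The deposited signal value is the peak caller's own measure and served only to rank peaks within a list. Lists hold no reads, so depth is unknown.

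Summits were assigned to TSSs of Ensembl release 115 in Python 3.11.15 with pandas 2.3.3, numpy 2.4.6 and scipy 1.17.1, and the assignment was tested on simulated summits. Replicate summits were matched within 150 bp of the optimal or pooled one. Windows came from the RefSeq dm6 sequence. The text names every bound member, the pooled-only members and the pathway lists. The members and lists were chosen with earlier results of these data known. The split by number of TSSs, neighbouring TSSs, unique 31-mers and the P450 comparison were chosen after the values had been seen. In the pathway lists, 2 genes matched by synonym (Cth and Gtpx). Alternatives changed the TSS window, gene assignment, peak threshold, replicate agreement, cluster gap and motif window.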

Additional observations from a re-analysis of the deposited data

How the results depend on the processing

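The count of 10 bound members (8 GSTs, 2 UGTs; 28.7% of all genes) depended on the peak threshold and on replicate agreement. The share of all genes moved with most settings too and is given in each sentence. With summits within 250 bp of a TSS, 5 GSTs were bound (23.5% of all genes). With the stronger 50% of the optimal peaks, 3 GSTs and 1 UGT were bound, 4 in all (17.6% of all genes), and with the 1000 strongest 1 GST and 0 UGTs (5.21%). With all pooled peaks, 15 GSTs and 11 UGTs had one, 26 in all (47.8%). Peaks found among the strongest of all 3 replicates gave 4 GSTs and 6 members at 150 bp (22.0%), and 3 GSTs and 1 UGT, 4 in all, at 50 bp (17.5%). With the peak interval required to overlap a TSS, 5 GSTs and 0 UGTs remained, 5 in all (17.9%). With peaks required in both of the other replicates, leaving out 1 replicate gave 4 to 5 GSTs, 2 UGTs each time and 6 to 7 members (22.6% to 24.8%). That was 6 members without replicate 2 or without replicate 3. The 7993 strongest peaks of replicate 1 alone gave 4 GSTs and 4 UGTs (28.8% of all genes), those of replicate 2 gave 10 GSTs and 4 UGTs (28.5%), and those of replicate 3 gave 5 GSTs and 3 UGTs (29.4%). In each of these settings the share of UGTs bound was below that of all genes. With all pooled peaks, however, the UGT interval (18.6 to 48.0) contains the share of all genes. With the 1000 strongest peaks, 35 genes are too few to show a lack against 5.21%. For GSTs in replicate 2 alone, 10 of 35, the share was nearly equal to that of all genes. In windows of 100 bp on either side of the summit, CANNTG was in 5 of the 9 peaks (56.5% of all TSS peaks). In the same windows GATAA was in 4 of the 9 (41.9% of all). Cluster gaps of 10 and 50 kb left 5 bound members inside and 5 outside. The causes of these differences were not tested, and the number of replicates and the unknown depth limit the precision of every rank.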
